A study of Mus musculus with 15 samples.

Results

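The comparison described here sets mammary tumour spheres given a signalling inhibitor against spheres given vehicle. It asks what marks the vehicle state off from every inhibitor group, and what was highly expressed in it. All 15 arrays of the series entered it: 12 inhibitor arrays, 3 each for DAPT, U0126, TAE226 and PP2, and 3 vehicle arrays. The inhibitor side is the mean of the 4 group means with equal weight. Each gene is represented by the probe set, a group of short probes on the array, with the highest mean log2 signal among those that name exactly 1 gene.

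The cells were primary mammary tumour cells of FVB/N mice carrying MMTV-PyMT, a transgene in which the mouse mammary tumour virus promoter, active mainly in mammary epithelium, drives the middle T oncogene of polyoma virus. They grew as mammospheres, which are floating spheres of cells, without serum and with EGF, FGF and B27. After 10 days the cultures received an inhibitor or vehicle for 2 days, and total RNA was hybridised to Affymetrix Mouse430_2 arrays. Per the labels, DAPT inhibits Notch, U0126 inhibits Mek1, TAE226 inhibits Fak and PP2 inhibits Src. Genotype, strain, medium and time in culture were thus shared by all 5 groups. No source used here gives the doses. The replicates of a group are labelled biological, but no mouse or culture is named for any of them. A p-value here therefore measures the spread between samples, which may be technical. All 4 inhibitor groups were set against the same 3 vehicle samples. A change that the inhibitors share and a feature of those 3 samples or arrays therefore cannot be told apart.

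Middle T is a membrane protein without enzyme activity that acts by recruiting Src family kinases and, through them, the Shc and PI3K arms of growth factor signalling. Mek1 activates ERK, Fak carries signals from integrins, and DAPT blocks γ-secretase, which cuts Notch receptors inside the membrane to release their active fragment. Several stress and defence programmes recur below. Interferons signal through surface receptors and Jak kinases to switch on antiviral genes. The integrated stress response works through the factor Atf4, which turns on genes of amino acid supply. The unfolded protein response raises chaperones of the endoplasmic reticulum, and hypoxia-inducible factors turn on genes of oxygen and glucose use.

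Values are log2 of the deposited signal, and a fold change is inhibitors over vehicle on that scale. A probe set is called dim in a group where every array of that group lay below its own array's median. Array medians were higher with inhibitors, at 82.6 ± 5.74 signal units (SD, n = 12) against 73.3 ± 6.68 in vehicle (n = 3, exact two-sided permutation p = 0.0308). The 3′ to 5′ ratio of the actin control probe sets, a measure of RNA integrity, was 1.38 ± 0.129 with inhibitors and 1.42 ± 0.0604 in vehicle (exact permutation p = 0.604). The pooled mean hides a spread between inhibitors, at 1.35 with DAPT, 1.28 with U0126, 1.33 with TAE226 and 1.57 with PP2. All PP2 arrays lay above every vehicle array and all U0126 arrays below. Whether this bears on the changes of genes was not tested. Of 12 luminal epithelial markers, 10 lay above the median on all 3 vehicle arrays, as did 5 of 8 basal markers. None of 8 fibroblast, 6 endothelial, 4 adipocyte or 2 erythroid markers did, while 2 of 9 leukocyte markers (Cd14 and Cd68) and 1 of 2 Schwann and nerve markers (Sox10) did. The luminal keratins Krt8 and Krt18 were bright, while Esr1 and Foxa1 were below the median on all 3 vehicle arrays. In RNA from whole cultures, fewer cells of a type and less RNA per cell cannot be told apart.

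Of 11465 genes tested, 4667 (40.7%) passed limma's adjusted p of 0.05 in the pooled comparison. Of these, 2284 (19.9%) were higher with inhibitors and 2383 (20.8%) lower. A stricter reading asks in addition that all 12 inhibitor arrays lie on one side of all 3 vehicle arrays, and such genes are said to set vehicle apart. There were 1323 of them (11.5%), 518 higher with inhibitors (4.52%) and 805 lower (7.02%). The lower side held the larger changes. It had 152 genes with at least a 2-fold and 66 with at least a 4-fold fall, against 70 and 15 rises of that size. The 805 lower genes had a median vehicle level of 10.67 on the log2 scale, against 9.45 for the 518 higher genes and 9.44 for all genes tested. Vehicle values are part of the rule that picked both sets, so these levels are not a separate result.

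The balance of rises and falls rests on the scale. With each array centred on its own median, which moves the median change of all genes by 0.17, 717 genes were called higher and 3959 lower. On that scale 117 genes set vehicle apart by being higher and 1174 by being lower. Among the genes listed above, 734 of 805 falls and 112 of 518 rises still set vehicle apart. The model matters as well. With the 12 inhibitor arrays treated as 1 group, so that the spread between inhibitors counts as error, 504 genes were called higher and 660 lower. These included 387 of the 518 and 590 of the 805.

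**Figure D1:**
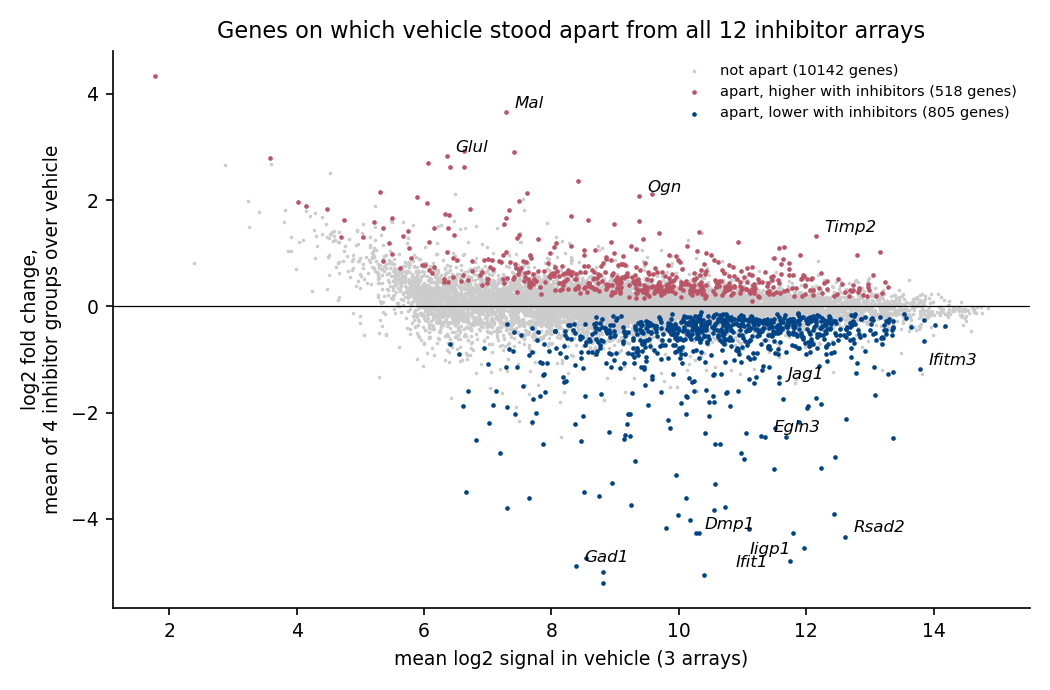
Log2 fold change of inhibitors over vehicle (vertical axis) against mean log2 signal in vehicle (horizontal axis) for 11465 genes. Coloured points are the 518 higher and 805 lower genes for which no inhibitor array overlapped a vehicle array; the falls reach further from 0 than the rises at vehicle levels above 8.

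Interferon-stimulated genes had the lowest median change of the 48 gene lists. All 28 interferon response genes tested were lower with inhibitors, and all 28 set vehicle apart, where 7.02% of all genes did so in this direction. Their median log2 fold change was -2.59, against 0.02 over all genes tested, and it was -3.15 with DAPT, -3.12 with U0126, -1.31 with TAE226 and -3.26 with PP2. With dim groups set at their bound the median was -2.46. Of the 66 falls of at least 4-fold, 21 were on this list 20 belonged to the 5 antiviral families described below, and 37 were in these families, this list or the antigen presentation list. The list was written with earlier results of these data known, so its count describes these arrays and is not independent evidence of direction.

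The effectors fell furthest. Rsad2, which encodes viperin, an enzyme that makes a chain-terminating nucleotide, lay between 6.44 and 9.92 (median 7.95) on the 12 inhibitor arrays, against 12.59, 12.83 and 12.41 in vehicle. The groups did not overlap, and PP2 and DAPT arrays were lowest. The log2 fold change was -4.34 ± 0.16 (SE, limma adjusted p = 4.65e-12), or 20.2-fold lower. Ifit1, whose product binds viral RNA caps, lay between 4.45 and 9.56 (median 6.46) on the 12 inhibitor arrays, against 11.73, 11.98 and 11.52 in vehicle, with a change of -4.79 ± 0.23 (SE, limma adjusted p = 6.49e-11). With PP2 it was dim, so that its fall was at least 21.6-fold. Oasl2, of the oligoadenylate synthetase family, lay between 2.56 and 8.45 (median 4.99) on the 12 inhibitor arrays, against 10.43, 10.61 and 10.13 in vehicle, with a change of -5.05 ± 0.30 (SE, limma adjusted p = 8.92e-10) and a fall of at least 11.9-fold. TAE226 arrays held the highest inhibitor values for all 3 of these genes, yet none reached the vehicle range.

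The interferon-stimulated response element, a sequence found before many interferon-induced genes, was searched in the promoters of these genes. The windows run from 250 bases before to 50 after each gene's start and come from RefSeq on build GRCm38.p6. They are shown for Rsad2 and Ifit1 because both genes were bright in vehicle, held a match and fell by more than 20-fold. Capitals mark matches to GAAANNGAAA on either strand, here read as its reverse complement. The Ifit1 window lies at chr19:34640639-34640938, plus strand and the Rsad2 window at chr12:26456403-26456702, minus strand.
Ifit1 promoter: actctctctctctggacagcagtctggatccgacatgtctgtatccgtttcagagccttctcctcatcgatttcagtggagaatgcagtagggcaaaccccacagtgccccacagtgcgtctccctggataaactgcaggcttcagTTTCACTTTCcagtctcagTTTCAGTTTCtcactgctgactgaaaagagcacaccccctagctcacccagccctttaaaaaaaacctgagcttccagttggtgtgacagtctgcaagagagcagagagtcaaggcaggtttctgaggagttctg
Rsad2 promoter: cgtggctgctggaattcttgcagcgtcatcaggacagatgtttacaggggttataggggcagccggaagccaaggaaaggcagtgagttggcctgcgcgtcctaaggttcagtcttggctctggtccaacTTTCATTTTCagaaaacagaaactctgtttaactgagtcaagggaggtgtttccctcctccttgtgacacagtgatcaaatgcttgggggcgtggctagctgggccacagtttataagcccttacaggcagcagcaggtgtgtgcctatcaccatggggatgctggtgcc
The Ifit1 matches begin at -104 and -85 from the start site and the Rsad2 match at -120. Of 20 interferon response genes with a window, 9 (45.0%) held at least 1 match. This list was written from general knowledge, so a high share was likely in advance. Matches were also held by 19 of 49 genes (38.8%) that fell at least 4-fold and by 7.67% of all 639 lower genes apart. The share was 3.55% of the 9313 tested genes with a window and 3.99% of all 27025 genes with one. A match is a run of letters and not a measured site.

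The upstream parts of the pathway did not all follow the effectors. These genes were picked after the other values were known. Of 9 interferon ligand genes on the array, 8, all of them type I or Ifng, lay below the median on every vehicle array. Ifnb1, the remaining ligand, was above it on 2 inhibitor arrays and 1 vehicle array and was not called. Its level was 5.20 to 6.66 (median 5.76) with inhibitors and 6.36, 5.43 and 6.0 in vehicle. The receptor gene Ifnar1 was not called, at 8.81 to 9.46 (median 9.19) with inhibitors and 9.16, 9.08 and 9.15 in vehicle, nor was Ifnar2. Ifngr2, a chain of the interferon gamma receptor, rose by 1.10 ± 0.08 (SE, limma adjusted p = 2.15e-08), although some arrays overlapped. Ifnlr1, a chain of the interferon lambda receptor, was also called higher (0.60, limma adjusted p = 7.8e-05). Of the kinases, Jak1 was called higher (0.24, adjusted p = 0.00019), and Jak2 and Tyk2 did not pass the test. Among the factors, Irf7, the amplifier of type I interferon expression, lay between 7.27 and 9.37 (median 7.68) on the 12 inhibitor arrays, against 10.48, 11.02 and 10.22 in vehicle, and Stat2 lay between 6.31 and 7.66 (median 6.67) on the 12 inhibitor arrays, against 8.45, 8.77 and 8.33 in vehicle. Irf9 fell with a log2 change of -1.33, Irf7 of -2.59, Stat2 of -1.70 and Irf1 of -0.41, and all of them set vehicle apart. Irf3, which is regulated mainly through its protein, was not called (adjusted p = 0.542). Of the nucleic acid sensors, Ifih1, which encodes Mda5, fell by 1.91 on the log2 scale, Ddx58, which encodes Rig-I, by 0.87 and Cgas by 0.85. Tlr3 was called lower with overlapping arrays (-0.44, limma adjusted p = 2.46e-05), while Mavs and Sting1 were not called.

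Several families of antiviral genes moved in the same direction. These families were grouped by symbol after their values were seen. Some members, such as Ifit1 and Oasl2, are those given above, so the counts partly repeat that result. The Parp genes, grouped in the same way, were mixed. Of 11 tested, 5 were called lower (20.8% of all genes) and 3 set vehicle apart as lower, with changes from -2.59 to 0.17. All 4 guanylate-binding proteins tested set vehicle apart on the low side, where 7.02% of all genes did, with changes from -4.26 to -2.87. So did all 4 Ifit genes, from -4.79 to -1.87, and all 4 immunity-related GTPases, from -4.55 to -2.29. Guanylate-binding proteins and immunity-related GTPases attack the vacuoles of intracellular pathogens. Of 7 genes of the oligoadenylate synthetase family, 6 set vehicle apart, as did 4 of 5 Schlafen genes. Iigp1, an immunity-related GTPase, lay between 6.28 and 8.90 (median 7.08) on the 12 inhibitor arrays, against 11.98, 12.26 and 11.64 in vehicle, a fall of 23.5-fold (-4.55, limma adjusted p = 4.08e-13). Gbp3 lay between 5.63 and 9.95 (median 7.0) on the 12 inhibitor arrays, against 11.82, 12.03 and 11.53 in vehicle. The inhibitor with the smallest change for both was TAE226, at -3.15 for Iigp1 and -1.95 for Gbp3.

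Antigen presentation genes fell with them. Of 12 tested, 11 were called lower (20.8% of all genes) and 8 set vehicle apart (7.02% of all genes), with a median log2 change of -0.96. The immunoproteasome subunits, which replace the standard catalytic subunits and alter the peptides made, led the list. Psmb8 lay between 6.39 and 8.75 (median 6.92) on the 12 inhibitor arrays, against 10.59, 10.78 and 10.32 in vehicle, a change of -3.35 ± 0.14 (SE, limma adjusted p = 2.06e-11). Psmb9 changed by -2.44 and Psmb10 by -1.69. The peptide transporter genes Tap1 and Tap2 changed by -1.68 and -1.07. The Tap2 changes were -1.30 with DAPT, -1.12 with U0126, -0.88 with TAE226 and -0.98 with PP2, and the F-test among inhibitors called their difference (limma adjusted p = 0.00951). The class I heavy chains H2-K1 (-0.55) and H2-D1 (-0.53) also set vehicle apart. B2m, the light chain and bright in vehicle, fell by 0.38 with overlapping arrays, and Cd74 of class II was not called.

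Of 22 chemokine and cytokine genes, 6 were called higher and 8 lower, where 19.9% and 20.8% of all genes were. The 8 became 5 with the inhibitor arrays as 1 group and 4 among genes above the median on all 15 arrays. Cxcl10, an interferon-induced attractant of T cells, was dim with every inhibitor and lay between 0.94 and 6.29 (median 3.85) on the 12 inhibitor arrays, against 8.40, 8.81 and 8.42 in vehicle, a fall of at least 4.53-fold. Ccl5 fell by at least 5.67-fold and the neutrophil attractant Cxcl2 by at least 5.64-fold. Cxcl1 lay between 11.15 and 12.94 (median 12.0) on the 12 inhibitor arrays, against 13.32, 13.27 and 13.28 in vehicle, with a change of -1.26 ± 0.057 (SE, limma adjusted p = 3.32e-11). Of 16 NF-kB target genes, 8 were lower (2 with the inhibitor arrays as 1 group) and 1 higher, the last being Rela at 0.29, which was no longer called after median centring (0.12). Of 9 leukocyte markers on the array, Ptprc, Lyz2, Itgam and Tyrobp lay below the median on all 15 arrays. Adgre1 was above it on 7 inhibitor arrays and no vehicle array, Csf1r on 9 inhibitor and 2 vehicle arrays, Cd68 on 2 inhibitor and 3 vehicle arrays, and Cd3e on 1 inhibitor array. Cd14, a lipopolysaccharide co-receptor that also marks macrophages, was bright, at 10.90 to 13.53 (median 12.96) with inhibitors and 13.44, 13.43 and 13.57 in vehicle. The summed signal of the 9 leukocyte markers on the array ran from 2243 to 12260 with inhibitors and from 11324 to 12466 in vehicle, most of it from Cd14. Its part in the falls of interferon and chemokine genes was not tested.

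**Figure D2:**
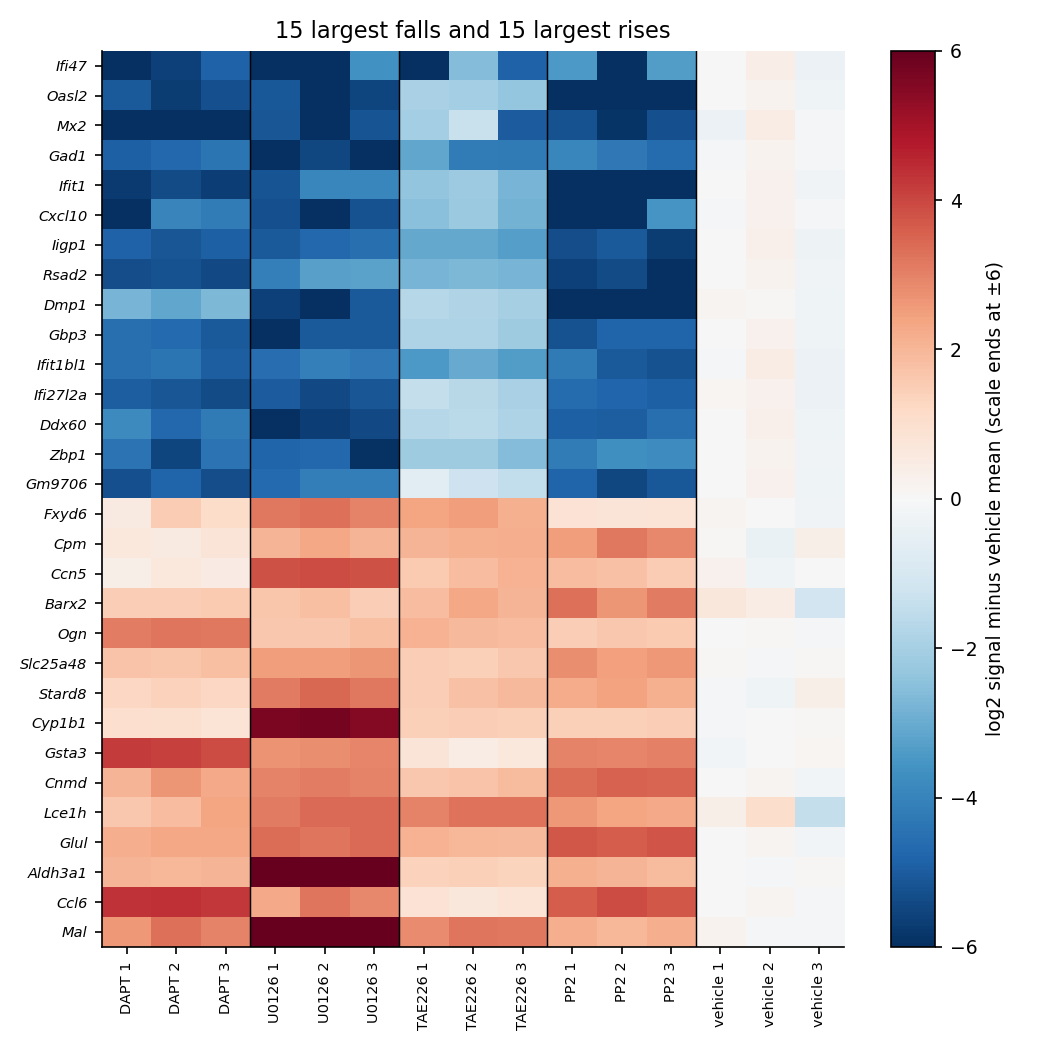
Log2 signal of the 15 largest falls and 15 largest rises on each array, less the gene's vehicle mean (colour, scale ends at ±6), with 3 arrays per group and vehicle at the right. Falls are shallowest on the TAE226 arrays for most interferon-stimulated genes, and Mal, Aldh3a1 and Cyp1b1 rise most with U0126.

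Not all of the largest falls were interferon-stimulated genes. Gad1, which makes the transmitter GABA from glutamate, was dim with every inhibitor, at 0.01 to 5.28 (median 3.87) with inhibitors and 8.32, 8.57 and 8.24 in vehicle. Gad1 fell by at least 4.04-fold. Its gap between the nearest inhibitor and vehicle arrays, 2.96 on the log2 scale, was the widest of any gene. That gap runs to inhibitor values below the array median, and the gene passed the filter only through its vehicle arrays, so the rank rests on dim signals. Dmp1, an acidic phosphoprotein of bone matrix, lay between 2.95 and 8.57 (median 6.19) on the 12 inhibitor arrays, against 10.42, 10.36 and 10.03 in vehicle, a fall of at least 8.79-fold. It was dim with U0126 and PP2. Sprr1b, a precursor of the cornified envelope of skin, lay between 0.58 and 7.02 (median 4.88) on the 12 inhibitor arrays, against 7.62, 7.68 and 7.63 in vehicle, and it was dim with all inhibitors except TAE226. With the inhibitor arrays as 1 group Sprr1b was not called (limma adjusted p = 0.118).

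Integrated stress response genes formed the next large block. Of 24 tested, 21 were called lower with inhibitors and 1 higher, and 15 set vehicle apart, all lower. Over all genes 20.8% were called lower and 7.02% set vehicle apart as lower. The median change was -0.67, and it was -0.58 with DAPT, -0.52 with U0126, -0.68 with TAE226 and -1.11 with PP2. Atf4 itself, the factor at the centre of the response, fell by 0.64 and set vehicle apart. Among its transcription factor partners, Ddit3, which encodes Chop, lay between 8.56 and 9.66 (median 9.21) on the 12 inhibitor arrays, against 10.72, 10.91 and 10.62 in vehicle, a change of -1.62 ± 0.088 (SE, limma adjusted p = 3.54e-10). Trib3, a pseudokinase that feeds back on Atf4, lay between 8.41 and 9.67 (median 9.20) on the 12 inhibitor arrays, against 10.72, 10.94 and 10.56 in vehicle, a change of -1.63 ± 0.12 (SE, limma adjusted p = 2.15e-08). Chac1, which degrades glutathione, lay between 7.88 and 9.12 (median 8.73) on the 12 inhibitor arrays, against 10.23, 10.30 and 10.18 in vehicle, a change of -1.59 ± 0.074 (SE, limma adjusted p = 4.74e-11). PP2 arrays were lowest for Trib3 and Chac1 and DAPT arrays for Ddit3.

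Enzymes of amino acid supply were lower too. Cth, which makes cysteine, changed by -1.49, Asns, which makes asparagine, by -0.64, and Psph of serine synthesis by -0.70. Mthfd2 of mitochondrial folate metabolism changed by -1.12. Pck2, the mitochondrial enzyme that makes phosphoenolpyruvate, lay between 9.79 and 10.04 (median 9.95) on the 12 inhibitor arrays, against 10.88, 11.04 and 11.03 in vehicle. Its 4 changes were within 0.13 of each other, at -1.02 with DAPT, -0.97 with U0126, -1.11 with TAE226 and -1.09 with PP2, and the F-test among inhibitors did not call it (limma adjusted p = 0.232). The amino acid transporters Slc7a5 (-0.72) and Slc7a1 (-0.79) also set vehicle apart. Sesn2, an inhibitor of mTORC1, was the member called higher, at 0.34.

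Chaperones and folding enzymes of the endoplasmic reticulum were lower by smaller steps. Of 24 tested, 19 were called lower and none higher, 10 set vehicle apart, and the median was -0.33. Over all genes, 20.8% were called lower and 7.02% set vehicle apart as lower. Of the 24, 12 were called lower with the inhibitor arrays as 1 group. Pdia6, a protein disulphide isomerase, lay between 11.04 and 11.58 (median 11.34) on the 12 inhibitor arrays, against 12.03, 12.02 and 12.16 in vehicle, a change of -0.74 ± 0.055 (SE, limma adjusted p = 1.86e-08). Manf, a secreted stress protein, changed by -0.63 and Sdf2l1 by -0.59. Pdia4 changed by -0.68 and Hyou1 by -0.62. With the mean of all its probe sets Pdia4 was not called (-0.21), and Hyou1 was not when _x_at and _s_at probe sets were avoided (-0.20). Hspa5, which encodes BiP, fell by 0.39 with overlapping arrays, and the sensors Atf6 and Ern1 were not called. Genes of export from the endoplasmic reticulum were examined after these values were seen. Of 10 COPII coat genes, 7 were lower and 5 set vehicle apart, and all 3 KDEL receptors, which return escaped chaperones, were lower. Kdelr3 changed by -2.06.

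Promoters of both groups were searched for their best-known elements, and Chac1 and Pdia6 are shown because each had a match and fell with all 4 inhibitors. Trib3, which fell slightly further than Chac1 (-1.63), also held a match, at 15 from the start site, and is not shown. The Atf composite element was read as TGATGNAA and the endoplasmic reticulum stress element as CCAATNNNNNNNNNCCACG, both on either strand. Capitals mark the match. The Chac1 window lies at chr2:119350992-119351291, plus strand and the Pdia6 window at chr12:17266339-17266638, plus strand, from RefSeq on GRCm38.p6.
Chac1 promoter: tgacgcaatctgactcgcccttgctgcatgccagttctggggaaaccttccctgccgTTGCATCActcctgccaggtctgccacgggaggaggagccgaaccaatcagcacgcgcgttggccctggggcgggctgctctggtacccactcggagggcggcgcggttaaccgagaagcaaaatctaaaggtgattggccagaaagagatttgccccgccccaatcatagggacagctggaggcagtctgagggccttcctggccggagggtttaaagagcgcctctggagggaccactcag
Pdia6 promoter: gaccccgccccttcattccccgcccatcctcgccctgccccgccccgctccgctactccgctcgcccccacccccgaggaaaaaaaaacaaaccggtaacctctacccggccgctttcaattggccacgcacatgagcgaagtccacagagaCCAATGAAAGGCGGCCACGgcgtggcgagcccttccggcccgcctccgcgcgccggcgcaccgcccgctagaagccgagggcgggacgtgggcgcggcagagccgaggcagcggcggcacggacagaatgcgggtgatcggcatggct
The Chac1 match begins at -193 and the Pdia6 match at -98 from the start site. The Atf composite element was found in 7 of 21 integrated stress genes with a window (33.3%), against 2.63% of tested genes. The stress element was found in 8 of 21 chaperone genes (38.1%), against 0.15% of tested genes. Both lists were written from general knowledge, so high shares were likely in advance. Of 639 lower genes that set vehicle apart and had a window, 4.85% held the Atf element and 0.313% the stress element.

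Hypoxia genes were called lower with inhibitors in 18 of 20 cases (20.8% of all genes) and higher in none, with a median of -0.62. The 4 inhibitors differed in size, at -0.50 with DAPT, -0.10 with U0126, -0.73 with TAE226 and -1.28 with PP2, and 5 of the 20 genes set vehicle apart. Of the 20, 5 were called lower with the inhibitor arrays as 1 group, and Bnip3 was not (adjusted p = 0.0956). Egln3, which hydroxylates hypoxia-inducible factors when oxygen is present and is itself induced by low oxygen, lay between 7.51 and 10.21 (median 8.96) on the 12 inhibitor arrays, against 11.40, 11.30 and 11.37 in vehicle, a change of -2.45 ± 0.10 (SE, limma adjusted p = 7.92e-12). TAE226 and PP2 arrays were lowest, with 8.0, 7.78 and 8.14 for TAE226 and 7.52, 8.04 and 7.51 for PP2. Car9, a surface carbonic anhydrase, lay between 7.12 and 9.73 (median 8.94) on the 12 inhibitor arrays, against 10.59, 10.55 and 10.52 in vehicle, a change of -1.80 ± 0.10 (SE, limma adjusted p = 2.63e-10). Stc2, a secreted glycoprotein that belongs to the integrated stress list as well, changed by -2.03. Bnip3, which promotes removal of mitochondria, changed by -0.98, and Kdm3a, a histone demethylase, by -0.38. Vegfa (-1.14) and Adm (-1.76) were called lower but had overlapping arrays.

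The Egln3 promoter is shown as the leading gene of this list, with the hypoxia element ACGTG in capitals. Its window lies at chr12:54203825-54204124, minus strand, from RefSeq on GRCm38.p6.
Egln3 promoter: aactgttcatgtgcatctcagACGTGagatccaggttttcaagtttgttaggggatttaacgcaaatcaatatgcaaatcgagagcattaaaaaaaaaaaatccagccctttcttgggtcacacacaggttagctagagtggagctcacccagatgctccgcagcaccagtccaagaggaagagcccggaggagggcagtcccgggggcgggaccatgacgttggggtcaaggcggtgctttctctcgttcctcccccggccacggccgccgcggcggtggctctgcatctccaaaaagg
Its match begins at -229. Among genes with a window, this short element was in 13 of 17 hypoxia genes (76.5%), against 29.6% of tested and 21.8% of all genes. It was in 36.5% of 639 lower genes that set vehicle apart, and in 12.2% of 49 that fell at least 4-fold. The hypoxia list was written from general knowledge, so a high share was likely in advance.

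Metabolic lists were lower to differing degrees. For comparison, 20.8% of all genes were called lower and 7.02% set vehicle apart as lower. Of 18 cholesterol synthesis genes, 15 were called lower and none higher, 7 set vehicle apart, and the median was -0.44. With the inhibitor arrays as 1 group 5 were called lower. Cyp51, the lanosterol demethylase, lay between 10.16 and 11.02 (median 10.75) on the 12 inhibitor arrays, against 11.57, 11.62 and 11.50 in vehicle, a change of -0.90 ± 0.047 (SE, limma adjusted p = 2.36e-10). PP2 arrays were lowest. Msmo1 changed by -0.68 and Fdft1, the squalene synthase, by -0.56. With the mean of all probe sets Msmo1 was not called (adjusted p = 0.0545) and neither was Fdps (-0.28). Of 14 glycolysis genes, 9 were lower and 1 higher, but only Tpi1 set vehicle apart (-0.60). Without TAE226, 5 of the 14 were called lower, and with the inhibitor arrays as 1 group none was. None of 17 oxidative phosphorylation genes was called in either direction, although 3 were called lower after median centring.

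**Figure D3:**
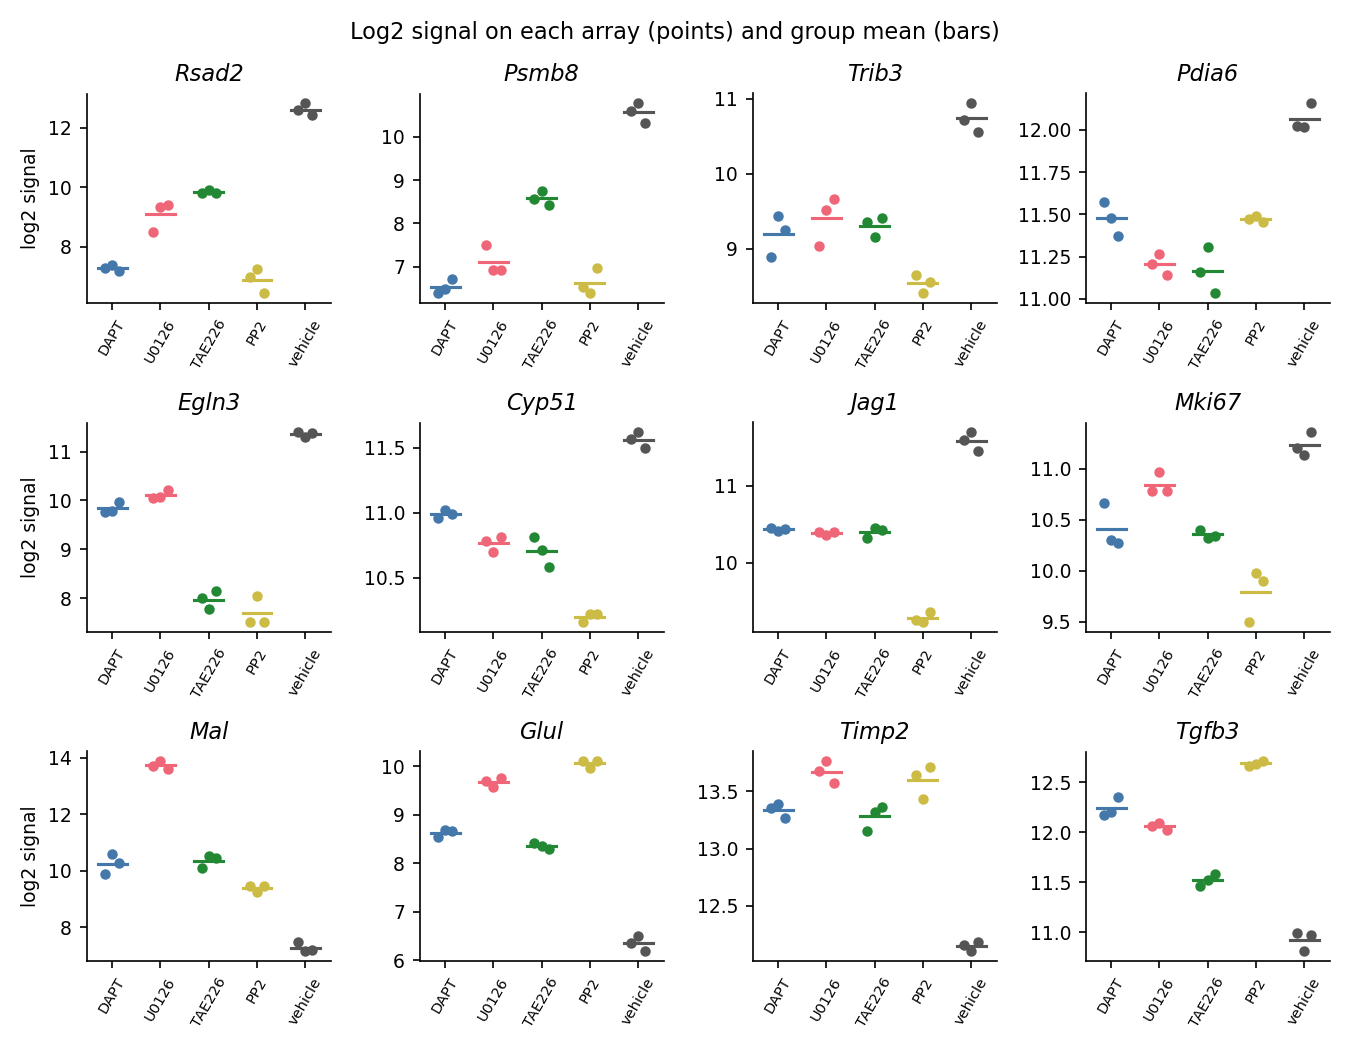
Log2 signal on each array (points) and group mean (bars) for 12 genes, with the inhibitor groups to the left of vehicle and vertical axes that differ between panels and do not start at 0. In the first 8 panels every inhibitor array lies below the vehicle arrays, and in the last 4 (Mal, Glul, Timp2, Tgfb3) every one lies above them.

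Cell cycle genes were lower, least so with U0126. By comparison, 20.8% of all genes were called lower and 7.02% set vehicle apart as lower. Of 29 genes of mitosis, 27 were called lower and none higher, with a median of -0.68, and it was -0.74 with DAPT, -0.01 with U0126, -0.54 with TAE226 and -1.49 with PP2. Of these, 6 set vehicle apart. With the inhibitor arrays as 1 group 1 mitosis gene and 4 replication genes were called lower. Mki67, the proliferation marker, lay between 9.50 and 10.97 (median 10.33) on the 12 inhibitor arrays, against 11.21, 11.13 and 11.36 in vehicle, a change of -0.88 ± 0.092 (SE, limma adjusted p = 1.04e-06). Top2a changed by -0.76 and Nusap1, a spindle protein, by -0.85. Top2a was not called with the mean of all its probe sets (-0.12), and a second probe set of Cenpf, another of the 6, went the other way (0.25). Of 26 genes of DNA replication, 21 were lower and 8 set vehicle apart. Mcm5 of the replicative helicase lay between 8.42 and 10.01 (median 9.85) on the 12 inhibitor arrays, against 10.50, 10.47 and 10.54 in vehicle, and the licensing genes Cdc6 and Cdt1 changed by -0.91 and -0.68. With the mean of all probe sets Mcm5 (adjusted p = 0.0564), Cdt1 (-0.27) and Mcm6 (-0.32) were not called. Of 21 genes of ribosome building, 14 were lower and 1 higher, and with the inhibitor arrays as 1 group 2 were called lower. Npm1, the nucleolar chaperone, lay between 13.45 and 14.14 (median 13.88) on the 12 inhibitor arrays, against 14.19, 14.17 and 14.16 in vehicle.

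ERK output genes were lower in 14 of 19 cases and higher in 1, against 20.8% and 19.9% of all genes. Vehicle was set apart by 4 of them (11.5% of all genes). With the inhibitor arrays as 1 group 1 was called lower, and Dusp6 (adjusted p = 0.133) and Fosl1 (adjusted p = 0.122) were not. Dusp6, a phosphatase of ERK, lay between 10.93 and 12.90 (median 11.92) on the 12 inhibitor arrays, against 13.06, 13.02 and 13.13 in vehicle. The changes were -0.25 with DAPT, -2.0 with U0126, -0.39 with TAE226 and -1.93 with PP2, so that U0126 and PP2 accounted for most of the pooled value of -1.14 ± 0.046 (SE, limma adjusted p = 1.02e-11). Dusp4, a nuclear phosphatase, was more even, at -1.54 with DAPT, -1.51 with U0126, -0.68 with TAE226 and -1.85 with PP2. The immediate early factor Egr3 changed by -1.86, with 6.21, 6.14 and 6.39 on U0126 arrays, its lowest. Fosl1 lay between 1.63 and 6.70 (median 5.60) on the 12 inhibitor arrays, against 7.41, 7.21 and 7.29 in vehicle, was dim with DAPT, U0126 and PP2, and fell by at least 1.86-fold. Epha4 was the member that set vehicle apart on the high side (0.72).

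On the list of inhibitor targets and linked proteins, 3 of 14 genes tested were called higher and 3 lower, close to the 19.9% and 20.8% of all genes. The list also holds Gab1 and Ptpn11, whose proteins the labels do not name as inhibited. Ptk2, which encodes Fak, was not among the 14. With the inhibitor arrays as 1 group 1 was called lower, and with array quality weights 5 were. Map2k1, which encodes Mek1, lay between 11.09 and 11.49 (median 11.33) on the 12 inhibitor arrays, against 11.76, 11.92 and 11.71 in vehicle, a change of -0.49 ± 0.047 (SE, limma adjusted p = 3.97e-07), lower in all 4 groups. Psenen, a γ-secretase subunit, changed by -0.25 (limma adjusted p = 0.0197) and was not called without vehicle replicate 2 (adjusted p = 0.0602) or replicate 3 (adjusted p = 0.0915). Src was not called, at 8.38 to 9.53 (median 9.01) with inhibitors and 8.75, 8.84 and 8.85 in vehicle. It was called higher with the mean of all its probe sets (0.36, limma adjusted p = 0.00594), where x_at and s_at probe sets were avoided (0.53, adjusted p = 0.000628), without U0126 (adjusted p = 0.0345) and without PP2 replicate 3 (adjusted p = 0.0485). Ptpn11, which encodes Shp2, had a change of 0.02 ± 0.043 (SE, limma adjusted p = 0.706).

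The Notch list split, with 6 of 16 called higher and 5 lower, where 19.9% and 20.8% of all genes were. The 6 became 3 after median centring or with the mean of all probe sets, and 0 with the inhibitor arrays as 1 group. Its ligands moved in opposite directions. Jag1 lay between 9.23 and 10.45 (median 10.40) on the 12 inhibitor arrays, against 11.59, 11.69 and 11.45 in vehicle, a change of -1.45 ± 0.051 (SE, limma adjusted p = 1.69e-12). PP2 arrays were lowest and the other inhibitor groups close together, at -1.14 with DAPT, -1.19 with U0126, -1.18 with TAE226 and -2.29 with PP2. Jag2 lay between 7.73 and 8.91 (median 8.08) on the 12 inhibitor arrays, against 7.36, 7.72 and 7.38 in vehicle, a change of 0.69 ± 0.13 (SE, limma adjusted p = 0.000319). Its nearest inhibitor and vehicle arrays almost touched, and with the inhibitor arrays as 1 group it was not called (adjusted p = 0.0823). Of the targets, Nrarp (-1.13), Hey1 (-0.70) and Hes1 (-0.44) were called lower with overlapping arrays. The receptor gene Notch1 was called higher, at 0.47, also with overlapping arrays.

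**Figure D4:**
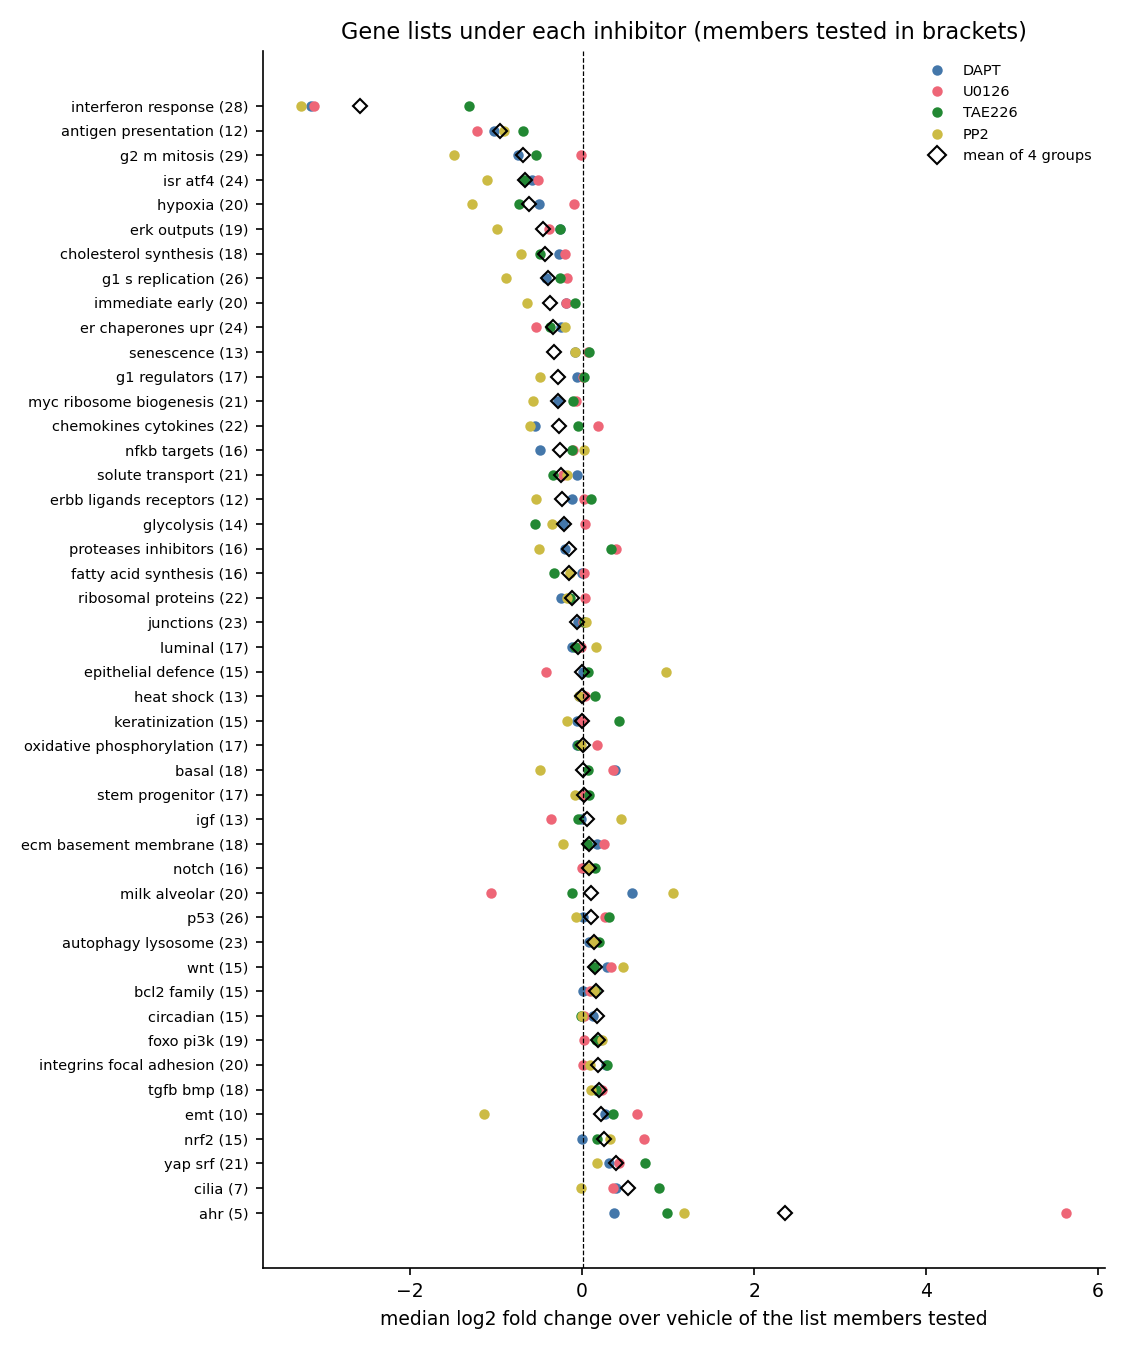
Median log2 fold change over vehicle of the tested members of each gene list (histones and inhibitor targets left out), for each inhibitor (coloured points) and for the mean of the 4 groups (open diamonds); the dashed line is the median of all genes tested. Interferon response lies furthest left and the 5-gene Ahr list furthest right, where the U0126 point lies far from those of the other inhibitors.

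The genes higher with inhibitors were spread over more functions, and 14 of the 70 rises of at least 2-fold were on any of the 48 lists. Mal, a membrane protein of apical sorting and myelin, lay between 9.27 and 13.88 (median 10.36) on the 12 inhibitor arrays, against 7.50, 7.16 and 7.20 in vehicle. U0126 arrays were far above the rest, at 13.70, 13.88 and 13.62, and the pooled change was 3.65 ± 0.12 (SE, limma adjusted p = 6.1e-13). Glul, the glutamine synthetase, lay between 8.29 and 10.11 (median 9.13) on the 12 inhibitor arrays, against 6.36, 6.51 and 6.19 in vehicle, a change of 2.83 ± 0.074 (SE, limma adjusted p = 8.23e-14), and had the widest gap of any rise, 1.78. It rose with each inhibitor, by 2.28 with DAPT, 3.32 with U0126, 2.0 with TAE226 and 3.71 with PP2. Gad1 and Glul, which both use glutamate, thus moved in opposite directions. Slc25a48, a mitochondrial carrier, lay between 11.0 and 12.36 (median 11.71) on the 12 inhibitor arrays, against 9.64, 9.46 and 9.63 in vehicle, a change of 2.10 ± 0.065 (SE, limma adjusted p = 4.08e-13). Cnmd, which encodes chondromodulin, an inhibitor of vessel growth, lay between 8.03 and 9.94 (median 9.21) on the 12 inhibitor arrays, against 6.38, 6.58 and 6.27 in vehicle. Ccl6, a chemokine found in mice, rose most with DAPT, at 4.32 with DAPT, 2.80 with U0126, 0.79 with TAE226 and 3.77 with PP2.

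Genes of xenobiotic and glutathione metabolism were higher. All 5 aryl hydrocarbon receptor targets tested were called higher (19.9% of all genes) and 2 set vehicle apart (4.52% of all genes as higher). Cyp1b1, a cytochrome P450, lay between 9.25 and 14.17 (median 9.85) on the 12 inhibitor arrays, against 8.34, 8.43 and 8.48 in vehicle, with U0126 arrays at 14.05, 14.17 and 13.93. Its changes were 0.94 with DAPT, 5.63 with U0126, 1.45 with TAE226 and 1.43 with PP2. Aldh3a1, an aldehyde dehydrogenase, changed by 2.03 with DAPT, 6.15 with U0126, 1.39 with TAE226 and 2.03 with PP2. Without U0126, 2 of the 5 were called, and with the inhibitor arrays as 1 group none was. Of 15 Nrf2 targets, 11 were higher and none lower, with a median of 0.26 (0.09 after median centring, when 4 were called). Without U0126 7 were called, and with the inhibitor arrays as 1 group 2 were. Gclc and Gclm, the 2 subunits of the enzyme that limits glutathione synthesis, both set vehicle apart. Gclm lay between 11.73 and 12.48 (median 11.93) on the 12 inhibitor arrays, against 11.43, 11.44 and 11.49 in vehicle, a change of 0.54 ± 0.055 (SE, limma adjusted p = 6.49e-07), and Gclc changed by 0.67. Gsta3, a glutathione transferase, changed by 4.06 with DAPT, 2.80 with U0126, 0.62 with TAE226 and 2.97 with PP2.

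For the counts that follow, 19.9% of all genes were called higher and 20.8% lower. Of 18 matrix genes, 6 were called higher and 3 lower, with a median of 0.07 (-0.10 after median centring). Of 16 proteases and inhibitors, 5 were higher and 4 lower, with a median of -0.16. In each list 2 were called higher with the inhibitor arrays as 1 group, and after centring 2 matrix genes and 3 proteases or inhibitors were. Some single members rose with all inhibitors. Timp2, an inhibitor of matrix metalloproteinases, was bright and lay between 13.16 and 13.77 (median 13.41) on the 12 inhibitor arrays, against 12.16, 12.11 and 12.18 in vehicle, a change of 1.32 ± 0.058 (SE, limma adjusted p = 2.5e-11). It was among the most even genes, at 1.19 with DAPT, 1.52 with U0126, 1.13 with TAE226 and 1.45 with PP2. The F-test among inhibitors still called a difference for it (limma adjusted p = 0.000333). Mmp14, the membrane protease that Timp2 both inhibits and helps, changed by 0.52. Ogn, a small proteoglycan, lay between 10.84 and 12.58 (median 11.20) on the 12 inhibitor arrays, against 9.40, 9.44 and 9.31 in vehicle, highest with DAPT, and Thbs1, a matrix protein that activates TGF-beta, changed by 0.89. Of 18 TGF-beta and BMP genes, 8 were higher (2 with the inhibitor arrays as 1 group) and 2 lower, with a median of 0.20 (0.02 after median centring). The ligand Tgfb3 lay between 11.46 and 12.71 (median 12.13) on the 12 inhibitor arrays, against 10.99, 10.81 and 10.97 in vehicle, a change of 1.20 ± 0.046 (SE, limma adjusted p = 5.6e-12). Smad6, an inhibitory Smad, lay between 6.90 and 8.67 (median 7.49) on the 12 inhibitor arrays, against 5.91, 6.20 and 6.34 in vehicle, a change of 1.48 ± 0.14 (SE, limma adjusted p = 2.47e-07).

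Of 21 Yap and Srf target genes, 15 were higher and 2 lower (19.9% and 20.8% of all genes), with a median of 0.40. After median centring the median was 0.23 and 8 were called higher, and with the inhibitor arrays as 1 group 4 were. Ankrd1, a widely used Yap target, lay between 7.28 and 8.74 (median 8.14) on the 12 inhibitor arrays, against 6.34, 6.58 and 6.06 in vehicle, a change of 1.74 ± 0.12 (SE, limma adjusted p = 7.37e-09). Ajuba, an adaptor that restrains Lats kinases, lay between 10.95 and 11.89 (median 11.57) on the 12 inhibitor arrays, against 10.50, 10.49 and 10.51 in vehicle, and Tpm1, a tropomyosin, changed by 0.63. Nt5e, the surface enzyme that makes adenosine, went the other way and lay between 9.54 and 11.21 (median 10.40) on the 12 inhibitor arrays, against 12.20, 12.38 and 12.13 in vehicle. Of 20 integrin and adhesion genes, 11 were higher and none lower, with 4 called after median centring, 2 with the inhibitor arrays as 1 group, and 7 without DAPT or without vehicle replicate 1. Bcar1, the Src substrate p130Cas, changed by 0.62. Itgav (0.19) was not called after centring (0.02), and another probe set of Parva (0.69), a partner of integrin-linked kinase, showed no rise (-0.05).

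Wnt genes were called higher in 5 of 15 cases (3 with the inhibitor arrays as 1 group), against 19.9% of all genes, and lower in 1, and the list median of 0.15 turned to -0.03 after centring. Axin2, a feedback inhibitor induced by β-catenin, was dim in vehicle and lay between 6.83 and 7.47 (median 7.11) on the 12 inhibitor arrays, against 5.04, 5.16 and 6.27 in vehicle, a rise of at least 1.95-fold. Wnt7b lay between 9.43 and 10.40 (median 9.66) on the 12 inhibitor arrays, against 8.78, 8.81 and 8.97 in vehicle, a change of 0.90 ± 0.091 (SE, limma adjusted p = 6.82e-07), and the receptor gene Fzd1 changed by 0.40. Oxtr, the oxytocin receptor and a myoepithelial marker, lay between 9.35 and 11.49 (median 10.67) on the 12 inhibitor arrays, against 8.95, 8.95 and 9.03 in vehicle, a change of 1.54 ± 0.053 (SE, limma adjusted p = 1.37e-12). It was the single basal list member of 18 that set vehicle apart, with 6 called higher and 1 lower. After median centring or without DAPT 3 basal genes were called higher, and with the inhibitor arrays as 1 group 1 was. Gadd45b of the p53 list, a growth arrest gene also induced by TGF-beta, lay between 10.46 and 12.24 (median 10.91) on the 12 inhibitor arrays, against 9.57, 9.79 and 9.69 in vehicle, while Cdkn1a was called lower (-0.32). Of the 13 senescence genes, 5 were higher and 7 lower, against 19.9% and 20.8% of all genes, and none set vehicle apart. The number lower was 4 without PP2 and 0 with the inhibitor arrays as 1 group.

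The inhibitor groups differed among themselves. The F-test among inhibitor groups, which uses no vehicle value in its contrasts, called 7780 of all genes tested (67.9%). It called 378 of the 518 higher genes (73.0%) and 633 of the 805 lower genes (78.6%). The change was largest most often with PP2, in 233 of the higher and 410 of the lower genes, and smallest most often with TAE226, in 162 and 265. All 4 inhibitors were called singly for 372 of the 518 and 558 of the 805. Over all genes DAPT was called higher for 16.8% and lower for 17.4%, U0126 for 19.4% and 21.3%, TAE226 for 15.0% and 15.9%, and PP2 for 25.8% and 26.9%. These comparisons share the 3 vehicle arrays.

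Genes that changed evenly were rare. Of 222 genes that set vehicle apart by at least 2-fold, 17 had 4 inhibitor changes within 0.5 of each other on the log2 scale, 8 lower and 9 higher. This selection was made after the values were seen. For 10 of the 17 the F-test among inhibitors made no call, which does not show that the inhibitors acted alike. Zfas1, a host of small nucleolar RNAs, lay between 11.30 and 12.03 (median 11.76) on the 12 inhibitor arrays, against 12.79, 12.87 and 12.73 in vehicle, at -1.08 with DAPT, -1.19 with U0126, -1.03 with TAE226 and -1.0 with PP2. Shfl, an interferon-stimulated inhibitor of frameshifting, changed by -1.66, and Pdia5 by -1.10. On the high side, Sema3c, a secreted guidance protein, lay between 11.41 and 12.02 (median 11.69) on the 12 inhibitor arrays, against 10.23, 10.40 and 10.31 in vehicle, at 1.28 with DAPT, 1.49 with U0126, 1.25 with TAE226 and 1.57 with PP2. Akap2, an anchor of protein kinase A, changed by 1.21, and Parm1, a mucin-like membrane protein, by 1.09. The F-test called differences among inhibitors for Sema3c (limma adjusted p = 0.00966), Akap2 (0.0117) and Parm1 (0.00071). It made no call for Zfas1 (0.587), Shfl (0.218) or Pdia5 (0.172).

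Lineage lists did not separate the groups in 1 direction. Of 17 luminal genes, 5 were higher and 5 lower, against 19.9% and 20.8% of all genes. The number lower was 3 without U0126 or without vehicle replicate 2 and 0 with the inhibitor arrays as 1 group. Epcam alone set vehicle apart, at 13.39 to 13.79 (median 13.58) with inhibitors and 13.87, 13.84 and 13.86 in vehicle. Of 20 milk and alveolar genes, 8 were higher and 5 lower. The number higher was 14 without U0126, 5 without DAPT or after median centring, 2 without PP2 and 0 with the inhibitor arrays as 1 group, and the median ran in opposite directions between inhibitors, at 0.58 with DAPT, -1.06 with U0126, -0.12 with TAE226 and 1.06 with PP2. Aqp5, a water channel, was the member that set vehicle apart and lay between 9.83 and 10.88 (median 10.14) on the 12 inhibitor arrays, against 11.39, 11.34 and 11.53 in vehicle, a change of -1.15 ± 0.053 (SE, limma adjusted p = 4.27e-11). Postn, a matrix protein, had a pooled change of -1.27, made up of -0.02 with DAPT, 0.07 with U0126, 0.14 with TAE226 and -5.30 with PP2, and without PP2 its change was 0.07.

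The brightest genes of vehicle spheres are given as a set. On each vehicle array the top 1% of the 18193 named genes held 181, and 162 genes were in it on all 3. Their mean vehicle signals ran from 11798 to 29731. Signal depends on a probe set's own probes, so it gives no order of RNA amounts between genes. Ribosomal protein genes made up 36 of the 162. The others included the keratins Krt8 and Krt18, the adhesion protein Epcam, Cd24a, the casein gene Csn3, Wfdc18, the iron carrier gene Lcn2, ceruloplasmin (Cp), the desaturases Scd1 and Scd2, the cyclin gene Ccnd1, and Hspa5, P4hb, Canx and Xbp1 of the folding machinery.

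Of the 162, 116 were in the top 1% on all 15 arrays. In the pooled comparison 69 (42.6%) were called, 11 higher and 58 lower, against 40.7% of all genes. None set vehicle apart by being higher and 7 (4.32%) did by being lower, against 7.02% of all genes. These 7 were Npm1, P4hb, Epcam, Sat1, Ifitm3, Rpn1 and Canx. Ifitm3, an interferon-induced block to virus entry, had mean signals of 5762 with DAPT, 4384 with U0126, 9864 with TAE226 and 6254 with PP2, against 14242 in vehicle, and was in the top 1% on no inhibitor array. Rpn1, a subunit of the complex that glycosylates nascent proteins, had 9631 with DAPT, 10251 with U0126, 9002 with TAE226 and 10144 with PP2, against 12817 in vehicle, and was in the top 1% on no inhibitor array either. Sat1, which acetylates polyamines, had 5791 with DAPT, 12331 with U0126, 12518 with TAE226 and 8667 with PP2, against 14812 in vehicle. Csn3, kappa-casein, had 21649 with DAPT, 8025 with U0126, 22446 with TAE226 and 26888 with PP2, against 24736 in vehicle. Conversely, 3 genes, ND5, Ndufa1 and Sorbs2, were in the top 1% on all 12 inhibitor arrays and on no vehicle array.

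**Figure D5:**
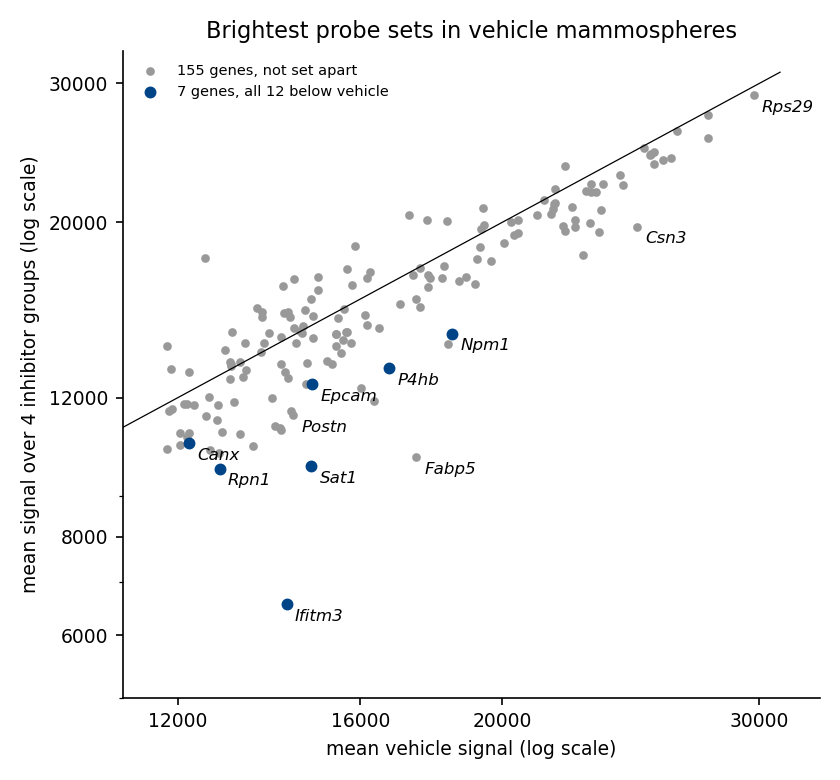
Mean signal over the 4 inhibitor groups (vertical axis) against mean vehicle signal (horizontal axis), both on log scales, for the 162 genes in the top 1% on all 3 vehicle arrays; the line marks equal signals. The 7 dark points are genes with all 12 inhibitor arrays below vehicle, of which Ifitm3 lies furthest from the line.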

How the data were processed

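Total RNA of 15 samples was hybridised to Affymetrix Mouse430_2 arrays, 1 per sample, after 3′ IVT labelling per the labels' protocols. The deposited values are intensity signals on a linear scale, which the authors made with MAS5 in Affymetrix Expression Console per the submitters' processing notes, with versions and settings not given in the sources used here. Each array has a 2% trimmed mean of 500. Of 45101 probe sets, 64 controls were left out, and 34945 had 1 gene, 932 several and 9160 none in the platform annotation, where 34741 symbols were updated through Entrez. This gave 18193 genes, of which the 11465 that exceeded their array's median on 3 or more arrays were tested.

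Here the log2 signals entered a limma model (limma 3.58.1, R 4.3.3) with 5 group coefficients, an intensity trend and Benjamini-Hochberg adjustment over all tested genes at 0.05. The pooled contrast is the mean of the 4 inhibitor coefficients less vehicle (10 residual degrees of freedom, median SE 0.0771). The fit was tested on simulated data. The number of arrays limits the precision. No scan date or slide was used as a batch.

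The members and gene lists were chosen with earlier results of these data known. Named by rule were the 15 largest rises and falls that set vehicle apart, up to 5 such genes per list, and the brightest 20 genes and listed bright genes. Also named were all tested genes of the inhibitor target list. Genes named as called with overlapping arrays, gene families, interferon pathway parts and evenly changed genes were chosen after their values were seen. A bound sets each dim array at the higher of its median and its own value. Alternatives were other scalings, pseudocounts, filters, probe set rules, models, and leaving out arrays or inhibitors. Probe sets that name several genes or none were not used for genes.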

Additional observations from a re-analysis of the deposited data

Results flagged for a closer look

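Probe sets with no gene in the platform annotation also held a signal. Of 2759 such probe sets that passed the same filter, 165 (5.98%) had all 12 inhibitor arrays above all 3 vehicle arrays and 48 (1.74%) had all 12 below. They were singled out because no comparison of genes used them. Among probe sets representing the tested genes, 521 (4.54%) lay above and 808 (7.05%) below. All these counts are on the deposited scale, on which array medians were higher with inhibitors. Median centring took the tested genes apart as higher from 518 to 117, and the unnamed probe sets were not counted again on that scale. The difference between these shares was not tested, and no gene is named for these probe sets here.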

How the results depend on the processing

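With each array centred on its median, 717 genes were called higher and 3959 lower, and 117 set vehicle apart on the high side. With the 12 inhibitor arrays as 1 group, 504 were called higher and 660 lower. That setting has the spread between inhibitors in its error by construction. Without U0126, 926 genes set vehicle apart as higher and 1278 as lower. Leaving out another inhibitor gave 696 to 727 higher and 964 to 983 lower. The bright set held 79 genes at the top 0.5% and 332 at the top 2%. Leaving out 1 array at a time gave 1775 to 2310 genes called higher, 1986 to 2364 called lower, 522 to 810 apart as higher (810 without vehicle replicate 3), 813 to 984 apart as lower, and 164 to 176 bright genes. With fewer arrays the rules for genes apart and for bright genes are easier to meet. Those counts thus tend to rise by construction, and all counts of genes apart with an inhibitor or array left out exceeded 518 and 805. Called changes that turned direction were Rbl1 (0.182) and Rps3 (0.071) with the mean of all probe sets, Parva (-0.048) where x_at and s_at probe sets were avoided, Postn (0.066) without PP2, and Muc15 (0.172) without U0126. Uncalled changes that turned and became called were Aph1a (0.13) and Cp (0.167) with the mean of all probe sets and Rps24 (0.352) where x_at and s_at probe sets were avoided. The cause was not tested. Over 238 single genes followed, a pseudocount of 16 ended no call, the replicate block 3, median centring 8 and the inhibitor arrays as 1 group 81. The mean of all probe sets, available for 232 of them, ended 22. Of the 518 and 805 genes apart, 424 and 593 were called with the mean of all probe sets. Between inhibitor and vehicle samples of the same replicate number, correlations of deviations from the group mean lay between -0.244 and 0.202. Pairs of inhibitor samples were not examined, and whether replicate numbers mark shared batches was not tested. With the replicate block, 2191 genes were called higher and 2309 lower, and 517 and 803 set vehicle apart. Dim signals near or below the array median limit the folds given as bounds.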
